A study of Homo sapiens with 12 samples.

Results

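Transcript levels of 9 genes that make, break down or carry glutamine were followed over 12 RNA-seq libraries of MDA-MB-231, a human triple-negative breast cancer cell line. The genes were given as a list of symbols, with no threshold on measured values, and they are 9 of the 19907 genes with a value in every library. This list and the pathway lists below were chosen with earlier results of these data known. Counts set beside the shares over all genes are therefore a description only. The list holds glutamine synthetase (GLUL), the glutaminase GLS2, glutamate dehydrogenase (GLUD1), the aspartate aminotransferases GOT1 and GOT2, the alanine aminotransferase GPT2 and the plasma membrane carriers SLC1A5, SLC38A1 and SLC38A2. Cells of every group expressed the glucocorticoid receptor (GR), either as the wild type (WT-GR) or with a serine changed to alanine as the name S134A gives (S134A-GR). All were starved of serum for 18 h in IMEM holding 1% DCC. Treatment was vehicle or the synthetic glucocorticoid dexamethasone (Dex) at 1 µM, for 6 h. The 4 groups were thus WT-GR vehicle, WT-GR Dex, S134A-GR vehicle and S134A-GR Dex, with 3 libraries each. The labels do not state how the receptors were introduced, whether each genotype is a single clone, or whether replicate libraries stem from cultures grown apart. P-values therefore measure only the spread between these libraries, which may be technical, and a difference between genotypes cannot be told apart from a difference between 2 cell populations.

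Glutamine is the main nitrogen carrier between cells and a common fuel of tumour cells in culture. Carriers such as SLC1A5 and SLC38A2 bring it in with sodium, glutaminases release its amide group to give glutamate, and GLUD1 or the aminotransferases turn glutamate into alpha-ketoglutarate for the tricarboxylic acid cycle. GLUL runs the other way, joining ammonia to glutamate, and has long been known as a gene that glucocorticoids induce in muscle and other tissues.

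All of these genes are placed on GRCh38 with the GENCODE v29 annotation. GLUL (ENSG00000135821.18) lies on the minus strand of chromosome 1, at chr1:182381704-182392206. GLS2 (ENSG00000135423.12) is at chr12:56470944-56488414, GLUD1 (ENSG00000148672.8) at chr10:87050486-87094866, and GOT1 (ENSG00000120053.11) at chr10:99396870-99431569. GOT2 (ENSG00000125166.12) is at chr16:58707131-58734357 and GPT2 (ENSG00000166123.13) at chr16:46884378-46931297. SLC1A5 (ENSG00000105281.12) is at chr19:46774883-46788594. SLC38A1 (ENSG00000111371.15) at chr12:46183063-46270017 and SLC38A2 (ENSG00000134294.13) at chr12:46358189-46372867 are neighbours, 88.2 kb apart. GPT2 is on the plus strand and the other 8 are on the minus strand. GLS2 and GLUD1 overlap protein-coding genes on the opposite strand (SPRYD4 and SHLD2), SLC1A5 overlaps an antisense RNA (AC008622.2), GLS2 also overlaps AC097104.1 on its own strand, and SLC38A2 overlaps an antisense RNA. No source states that reads were counted by strand, so reads of such pairs cannot be told apart. GLUD1 has 5 annotated pseudogenes besides the near-identical gene GLUD2, and GLUL and GOT2 have 4 pseudogenes each, so their counts depend on how reads that match several copies were assigned.

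The start regions of GLUL, SLC38A1 and SLC38A2 are shown because these 3 genes rose with Dex in both genotypes. The sequences come from RefSeq on GRCh38.p14, which held a start for 8 of the 9 genes (GPT2 had no entry). Where RefSeq held several starts, the most upstream was taken. Each is written 5′ to 3′ on the gene's strand, and capitals mark matches, on either strand, to the motifs searched. The motifs were the full glucocorticoid response element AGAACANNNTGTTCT, its half-site AGAACA, a FOXO site GTAAACA, an E-box CACGTG, an amino acid response element TGATGNAAT, a CCAAT box and a GC box GGGCGG. The half-site is contained in the full element, and no other motif contains another. The GLUL stretch is 30 bases, chr1:182391835-182391864, ending 45 bases before the RefSeq start. All 250 bases before that start lie in an exon of longer GENCODE v29 transcripts of GLUL. The SLC38A1 stretch is the 250 bases before the start, chr12:46267988-46268237. It lies inside the GENCODE v29 gene, whose 5′ end is at 46270017, and in none of its exons. GENCODE thus places this stretch in an intron. The SLC38A2 stretch, chr12:46372868-46373023, ends 95 bases before the RefSeq start and leaves out bases that GENCODE places in an exon.
GLUL: gctgggagCCAATcagggcaccggGGGCGG
SLC38A1: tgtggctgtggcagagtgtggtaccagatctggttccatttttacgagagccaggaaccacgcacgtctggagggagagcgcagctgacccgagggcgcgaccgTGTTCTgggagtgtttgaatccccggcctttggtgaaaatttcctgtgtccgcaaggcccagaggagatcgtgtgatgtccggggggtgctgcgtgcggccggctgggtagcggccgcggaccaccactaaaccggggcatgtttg
SLC38A2: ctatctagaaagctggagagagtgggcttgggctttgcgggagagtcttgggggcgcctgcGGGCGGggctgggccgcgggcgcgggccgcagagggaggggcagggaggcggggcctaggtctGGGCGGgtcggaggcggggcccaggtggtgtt

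In the 250 bases before the RefSeq starts, the full glucocorticoid response element was found in 0 of the 8 genes, against 0.00285% of 35116 such windows. The half-site was found in 1 of 8, SLC38A1, where its reverse complement TGTTCT begins 146 bases before the start, against 12.4% of all windows. GLUL held CCAAT boxes beginning 128 and 66 bases before its start and GC boxes beginning 221 bases (antisense) and 50 bases (sense) before it. A CCAAT box was found in 3 of 8 genes (GLUL, GOT1 and SLC1A5; 32.0% of all windows) and a GC box in 7 of 8 (42.6%). FOXO sites, E-boxes and amino acid response elements were found in 0 of 8, against 2.98%, 6.34% and 0.888% of windows. The windows are short and these letters are a description of them only.

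The deposited values are normalized read counts, and whole reads recovered from them summed to between 56.4 and 100.6 M (M, mega) a library. WT-GR Dex replicates 2 and 3 stood apart from the rest in how few genes had a single read, 193 and 210, where the remaining libraries had 352 to 409 such genes. Glucocorticoid target genes (TSC22D3, FKBP5, PER1 and KLF9) summed to between 8191 and 8373 in WT-GR vehicle and between 123532 and 127269 in WT-GR Dex. In S134A-GR cells their sum was between 7624 and 7919 in vehicle and between 89920 and 91549 in Dex. The mesenchymal markers of the line, VIM (366469 to 431198) and AXL (97698 to 124504), were high throughout. ESR1 (0 to 5.66), CDH1 (0 to 17.1) and the leukocyte marker PTPRC (0 to 18.3) were near 0. Other markers of luminal cells (KRT8, ERBB2) were well detected, and the summed endothelial list (PECAM1, CDH5 and VWF) was higher with Dex, at 2847 to 3399 against 1885 to 2032 in WT-GR cells and 2099 to 2340 against 1447 to 1572 in S134A-GR cells. The members of that list did not move together: the mean of VWF went from 396 to 187 in WT-GR cells and from 364 to 162 in S134A-GR cells, and PECAM1 made up most of the sum. Some markers differed between genotypes. In vehicle and Dex, CDH5 averaged 187 and 389 in WT-GR cells against 19.0 and 32.7 in S134A-GR cells. EPCAM averaged 1024 and 996 against 378 and 355. GATA3 went the other way (808 and 1153 against 1093 and 1489), as did FOXA1 and, by less, ERBB2. The part of these markers in the results below was not tested, and in such bulk RNA fewer cells of a type and less RNA per cell cannot be told apart.

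Dex raised GLUL, SLC38A2 and SLC38A1 in both genotypes, and of the 9 genes GLUL alone had a response that differed between genotypes by the test of that difference. In WT-GR cells 4 of the 9 genes were called higher (GLUL, SLC38A2, SLC38A1 and GOT1) and 0 lower, at an adjusted p under 0.05 in a limma model of log2(value + 1) fitted to all 15957 tested genes. By the same rule 13.9% of all genes were called higher, 14.0% lower and 27.9% in all. In S134A-GR cells 3 of 9 were called higher (GLUL, SLC38A2 and SLC38A1) and 1 lower (GPT2), against 7.99% and 7.76% of all genes (15.7% in all). The median log2 difference of the 9 genes was 0.02 in WT-GR cells and 0.01 in S134A-GR cells, beside -0.02 and -0.02 over all genes, so the list as a whole had no common direction. All 9 genes passed the filter on low values, which asked for 10 or more normalized counts in 3 or more libraries. The groups did not overlap for 4 genes in WT-GR cells, all with Dex higher (16.7% of all genes; 35.1% in either direction and 18.3% with Dex lower). In S134A-GR cells Dex was higher without overlap for 4 (18.2%) and lower for 2 (20.4%; 38.6% in either direction).

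**Figure D1:**
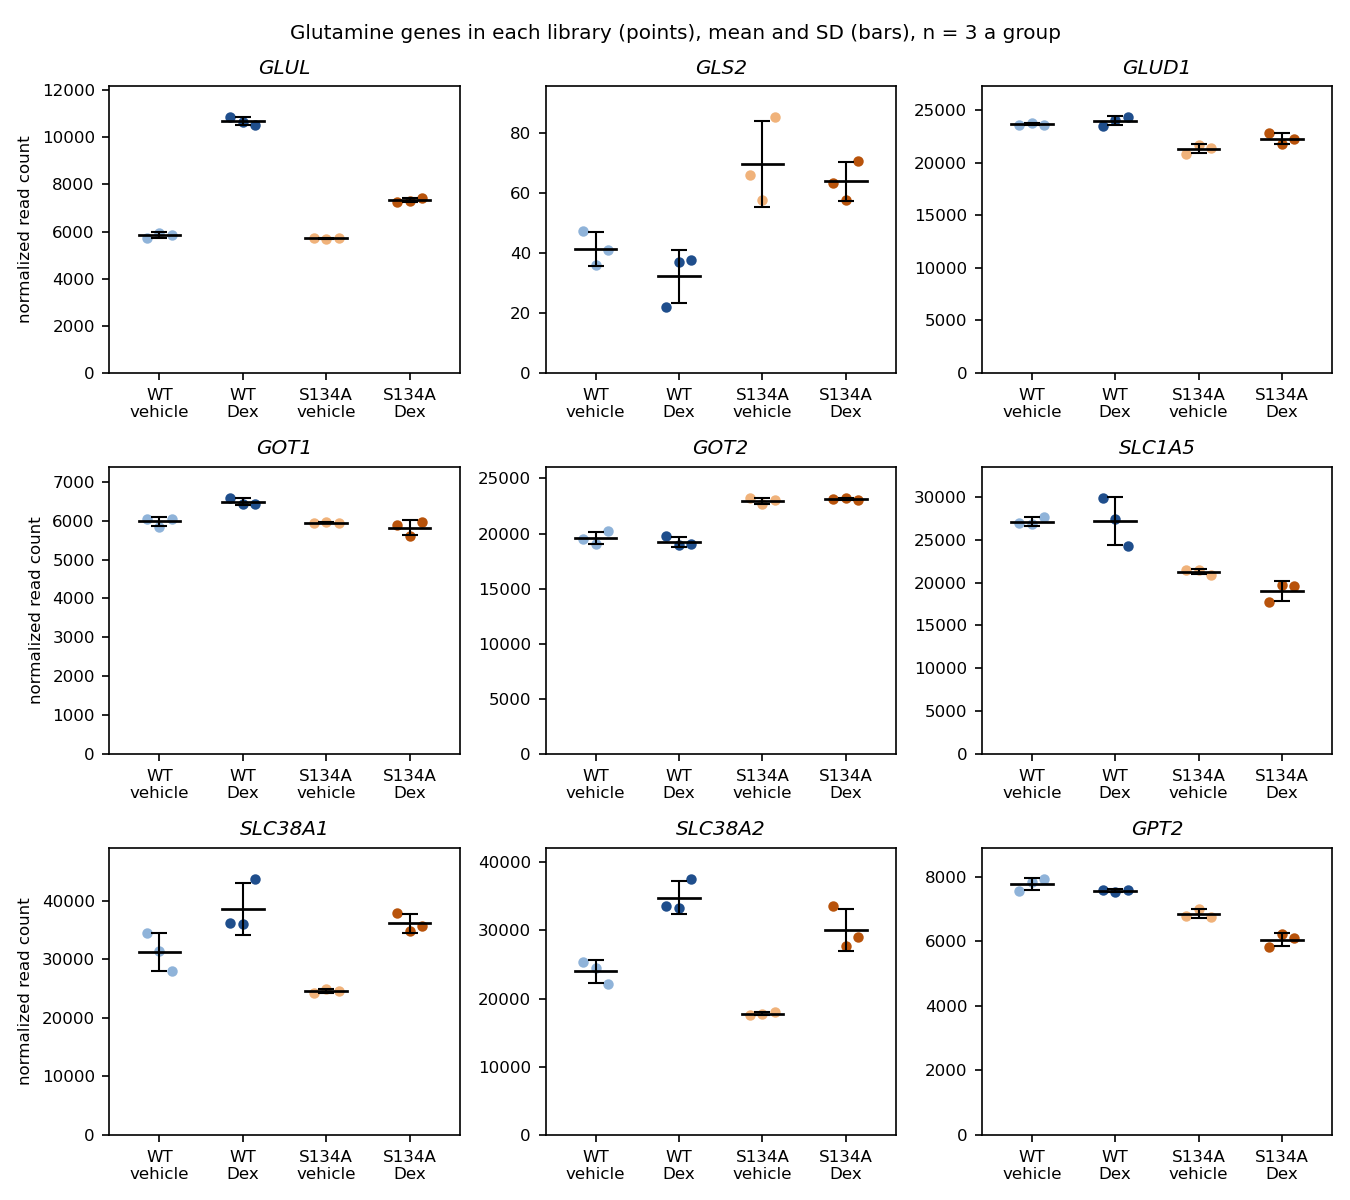
Normalized read count (y axis, from 0) of each of the 9 genes in each library, by group (x axis); points are the 3 libraries of a group, and bars are the mean and SD. GLUL lies between 10536 and 10866 in WT-GR Dex and between 7248 and 7409 in S134A-GR Dex, with both vehicle groups between 5691 and 5954.

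GLUL read 5708, 5954 and 5864 normalized counts in the 3 WT-GR vehicle libraries, and 10866, 10651 and 10536 in the 3 WT-GR Dex libraries. In S134A-GR cells it read 5714, 5691 and 5729 in vehicle, and 7248, 7302 and 7409 in Dex. The vehicle groups of the genotypes overlapped, every Dex library lay above every vehicle library, and the Dex libraries of the genotypes did not overlap. The rise was 82.9% in WT-GR cells (log2 difference 0.87 ± 0.04, SE, n = 3 a group; limma adjusted p = 1.13e-09) and 28.2% in S134A-GR cells (0.36 ± 0.04; limma adjusted p = 9.2e-06). The difference between the responses, S134A-GR minus WT-GR, was -0.51 ± 0.05 on the log2 scale (95% interval -0.63 to -0.40; limma adjusted p = 0.000499). Only 0.414% of all tested genes, 66, were called in that test (0.238% with a higher and 0.175% with a lower S134A-GR response), and GLUL ranked 7 among 15957 by its p. It was called under each of the 22 alternative settings and left-out libraries tried, at values from -0.54 to -0.48 and a highest adjusted p of 0.00707.

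The other 8 genes were not called in the test of the difference. Their adjusted p ranged from 0.235 (GOT1, -0.15, 95% interval -0.27 to -0.02) upward. The intervals of the carriers' differences, S134A-GR minus WT-GR, were 0.01 to 0.50 for SLC38A1, 0.00 to 0.44 for SLC38A2 and -0.36 to 0.04 for SLC1A5. That of GPT2 was -0.27 to -0.02. Differences as large as these bounds remain possible, and a p that misses the threshold does not show that the genotypes responded alike.

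**Figure D2:**
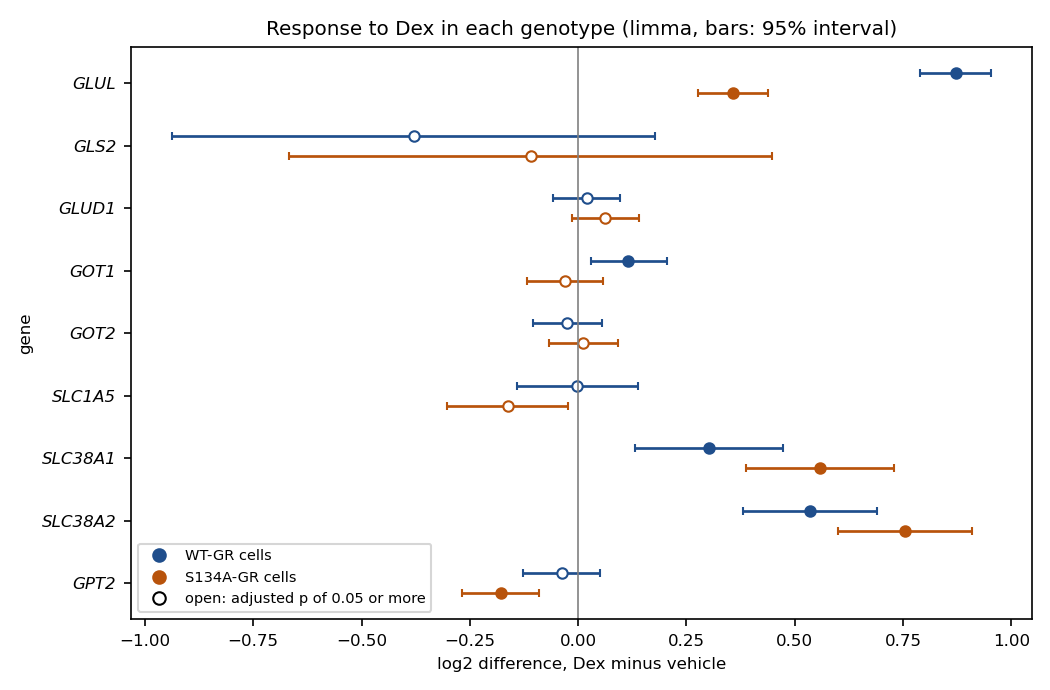
Log2 difference between Dex and vehicle (x axis) for each of the 9 genes (y axis) in WT-GR and S134A-GR cells, with 95% intervals from limma; filled points were called. GLUL is at 0.87 and 0.36 with intervals that do not meet, while SLC38A1 and SLC38A2 lie above 0 in both genotypes.

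SLC38A2, the sodium-coupled importer SNAT2 known to rise when amino acids are short, read 25401, 24498 and 22148 in WT-GR vehicle and 33502, 33327 and 37547 in WT-GR Dex. In S134A-GR cells it read 17594, 17736 and 18006 in vehicle, and 33542, 27736 and 28948 in Dex. All Dex libraries lay above all vehicle libraries, and the S134A-GR vehicle libraries were the lowest and the closest together. The rise was 44.9% in WT-GR cells (log2 difference 0.54 ± 0.07; limma adjusted p = 9.59e-05) and 69.2% in S134A-GR cells (0.75 ± 0.07; limma adjusted p = 3.33e-06).

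SLC38A1, its neighbour and the related importer SNAT1, read 34483, 31439 and 28042 in WT-GR vehicle, and 36230, 35968 and 43774 in WT-GR Dex. In S134A-GR cells it read 24189, 24899 and 24559 in vehicle, and 37948, 34854 and 35687 in Dex. The groups of each genotype did not overlap, though WT-GR vehicle replicate 1 came closest to the Dex libraries, and WT-GR Dex replicate 3 stood above all others. SLC38A1 rose by 23.4% in WT-GR cells (log2 difference 0.30 ± 0.08; limma adjusted p = 0.0123) and by 47.3% in S134A-GR cells (0.56 ± 0.08; limma adjusted p = 0.000171). The WT-GR call was lost without WT-GR Dex replicates 2 and 3 (0.22, adjusted p = 0.0825), a fit that leaves 1 WT-GR Dex library and takes its spread from the other groups, and when only the compared groups were fitted (adjusted p = 0.0593).

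SLC1A5, the neutral amino acid exchanger ASCT2, read 26900, 26782 and 27700 in WT-GR vehicle and 29898, 27386 and 24245 in WT-GR Dex. In S134A-GR cells it read 21420, 21430 and 20899 in vehicle, and 17705, 19744 and 19560 in Dex. The WT-GR Dex libraries fell on both sides of the vehicle ones, replicate 1 above and replicate 3 below, while every S134A-GR Dex library was below every S134A-GR vehicle library. Neither response was called: the log2 difference was 0.00 ± 0.07 in WT-GR cells (limma adjusted p = 0.982) and -0.16 ± 0.07 in S134A-GR cells (limma adjusted p = 0.12). The S134A-GR value passed the threshold in 5 alternatives, among them the fit of the compared groups only (adjusted p = 0.0479) and that without WT-GR Dex replicate 3 (adjusted p = 0.0281). WT-GR Dex replicate 3, the lowest of its group for SLC1A5, was the highest for SLC38A1 and SLC38A2.

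GPT2, the mitochondrial alanine aminotransferase, read 7575, 7827 and 7939 in WT-GR vehicle and 7595, 7525 and 7602 in WT-GR Dex. In S134A-GR cells it read 6799, 7016 and 6744 in vehicle, and 5825, 6226 and 6114 in Dex. The WT-GR groups overlapped and the S134A-GR groups did not. GPT2 fell by 11.6% with Dex in S134A-GR cells (log2 difference -0.18 ± 0.04; limma adjusted p = 0.00799), and its WT-GR difference of -0.04 ± 0.04 was not called (adjusted p = 0.52).

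GOT1, the cytosolic aspartate aminotransferase, read 6048, 5847 and 6054 in WT-GR vehicle and 6591, 6430 and 6436 in WT-GR Dex. In S134A-GR cells it read 5939, 5961 and 5946 in vehicle, then 5902, 5597 and 5973 in Dex. The WT-GR Dex libraries lay above all others, by a small margin. The WT-GR rise of 8.4% (log2 difference 0.12 ± 0.04; limma adjusted p = 0.0483) was close to the threshold, and it was called in 7 of 23 alternatives, with adjusted p up to 0.362. The S134A-GR difference was -0.03 ± 0.04 (adjusted p = 0.732).

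GOT2, the mitochondrial form, read 19460, 19092 and 20228 in WT-GR vehicle and 19797, 18979 and 19006 in WT-GR Dex. With S134A-GR the vehicle libraries read 23243, 22638 and 23007 and the Dex libraries 23171, 23246 and 23020. Dex and vehicle overlapped in both genotypes, with log2 differences of -0.03 ± 0.04 and 0.01 ± 0.04 that were not called (adjusted p = 0.655 and 0.91). GLUD1, which releases ammonia from glutamate in mitochondria, read 23584, 23725 and 23573 in WT-GR vehicle, and 23486, 24022 and 24348 in WT-GR Dex. With S134A-GR the vehicle libraries read 20847, 21709 and 21413 and the Dex libraries 22849, 21749 and 22207. The S134A-GR groups did not overlap, by a gap of under 1 SD of either group, and neither response was called (0.02 ± 0.04, adjusted p = 0.723, and 0.06 ± 0.04, adjusted p = 0.316).

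GLS2, the liver-type glutaminase, was the least abundant of the 9. It read 47.3, 35.9 and 41.1 in WT-GR vehicle and 22.2, 36.9 and 37.6 in WT-GR Dex. With S134A-GR the vehicle libraries read 66.0, 57.8 and 85.5 and the Dex libraries 63.4, 57.8 and 70.6. Dex and vehicle overlapped in both genotypes, and the intervals were wide: -0.94 to 0.18 for the WT-GR log2 difference of -0.38, and -0.67 to 0.45 for the S134A-GR difference of -0.11. Neither was called (adjusted p = 0.296 and 0.87). At this level a change of the size seen in SLC38A1 was not detectable.

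Without Dex, S134A-GR cells carried less mRNA of 5 of the 9 genes than WT-GR cells, and more of 2. In vehicle, SLC38A2, SLC1A5, SLC38A1, GPT2 and GLUD1 were called lower, and GLS2 and GOT2 higher. Genotype differences were common over all genes: 26.7% were called lower, 23.8% higher and 50.5% in all. In Dex 6 of 9 were lower (GLUL, SLC1A5, GPT2, SLC38A2, GOT1 and GLUD1) and the same 2 genes, GLS2 and GOT2, were higher, against 26.3% lower, 23.4% higher and 49.7% in all. The genotypes did not overlap in vehicle for 5 lower genes (32.7% of all genes) and 2 higher (31.5%; 64.3% in either direction). In Dex they did not overlap for 5 lower (27.1%) and 2 higher (25.3%; 52.4% in either direction). The median log2 difference of the 9 genes, S134A-GR minus WT-GR, was -0.15 in vehicle and -0.16 in Dex, beside 0.01 and 0.01 over all genes. With scaling by library size alone, 3 of the 9 genes remained called lower in each treatment, and that scaling moved the median of all genes in Dex from 0.01 to 0.12. The share of called genes that were higher was 59.6% in vehicle and 64.9% in Dex under that scaling, beside 47.2% and 47% here. For Dex in WT-GR cells it was 32.4%, beside 49.7% here.

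**Figure D3:**
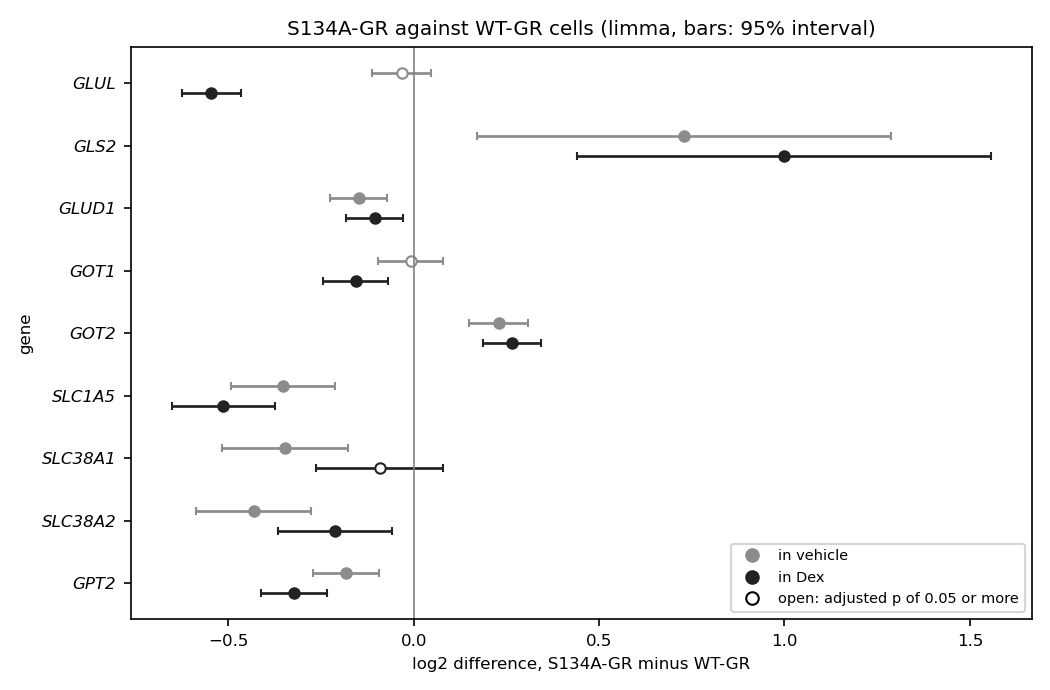
Log2 difference between S134A-GR and WT-GR cells (x axis) for each of the 9 genes (y axis), in vehicle and in Dex, with 95% intervals from limma; filled points were called. GLUL lies at -0.03 in vehicle and -0.55 in Dex, and GOT2 lies above 0 in both.

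The genotype comparisons share their libraries with the Dex comparisons, so the values below restate the levels given above from the other side. All 3 carriers were lower in vehicle: SLC38A2 was 26.0% lower in S134A-GR cells (log2 difference -0.43 ± 0.07; limma adjusted p = 0.000216), SLC1A5 21.7% lower (-0.35 ± 0.07; adjusted p = 0.000497) and SLC38A1 21.6% lower (-0.35 ± 0.08; adjusted p = 0.00244). For all 3 carriers every S134A-GR vehicle library lay below every WT-GR vehicle library. In Dex SLC1A5 was 30.1% lower (-0.51 ± 0.07; adjusted p = 2.36e-05). SLC38A1 was not called in Dex (-0.09 ± 0.08, adjusted p = 0.361), and SLC38A2 was called (-0.21 ± 0.07, adjusted p = 0.0243) although its libraries overlapped. That SLC38A2 call was lost in 6 of 23 alternatives, among them leaving out WT-GR Dex replicate 3 (adjusted p = 0.09).

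GLUL did not pass the threshold between genotypes in vehicle (-0.03 ± 0.04, 95% interval -0.11 to 0.05; adjusted p = 0.499), but it was called lower with library weights (-0.06, adjusted p = 0.0238). In Dex it was 31.5% lower in S134A-GR cells (-0.55 ± 0.04; limma adjusted p = 9.6e-08). GOT1 read much the same in both vehicle groups (-0.01 ± 0.04; adjusted p = 0.886) and was 10.2% lower in Dex (-0.16 ± 0.04; adjusted p = 0.00619). The Dex value of GOT1 was -0.04 with library-size scaling (adjusted p = 0.456).

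Among the mitochondrial enzymes, GOT2 was 17.2% higher in S134A-GR cells in vehicle (0.23 ± 0.04; limma adjusted p = 0.000162) and 20.2% higher in Dex (0.27 ± 0.04; adjusted p = 5.09e-05), with no overlap in either. GPT2 was 11.9% lower in vehicle (-0.18 ± 0.04; adjusted p = 0.00218) and 20.1% lower in Dex (-0.32 ± 0.04; adjusted p = 2.52e-05). Its vehicle value was -0.11 with library-size scaling and was not called (edgeR adjusted p = 0.057). GLUD1 was 9.75% lower in vehicle (-0.15 ± 0.04; adjusted p = 0.00355) and 7.03% lower in Dex (-0.11 ± 0.04; adjusted p = 0.0258). With library-size scaling the GLUD1 values were -0.07 in vehicle and 0.01 in Dex, and neither was called. The Dex call of GLUD1 was lost in 8 of 23 alternatives, among them the compared groups only (adjusted p = 0.0979) and leaving out S134A-GR Dex replicate 2 (adjusted p = 0.109). GLS2 was 68.4% higher in vehicle (0.73 ± 0.26; adjusted p = 0.0312) and 98.2% higher in Dex (1.00 ± 0.26; adjusted p = 0.0058). Its vehicle call was lost when any of 4 libraries was left out (adjusted p up to 0.133).

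Levels can be compared between genes only per length of transcript. Per kb of all annotated exons, the WT-GR vehicle means were 8141 ± 150 for SLC1A5, 6714 ± 24.0 for GLUD1, 5203 ± 154 for GOT2, 3638 ± 254 for SLC38A2 and 3127 ± 322 for SLC38A1 (SD, n = 3). GOT1 followed at 1776 ± 35.1, GPT2 at 1225 ± 29.4, and GLUL at 647 ± 13.8, with GLS2 last. SLC38A2 and SLC38A1 differed by less than 2 of the larger SD of the pair, and the other neighbours in this order by more. GLUL thus stood 8 of 9 in this order. Per kb of the principal transcript, which is 4719 bases against 9032 bases of exons for GLUL, its mean was 1238 ± 26.4 and its place in WT-GR vehicle was the same. The order of GLUD1 and GOT2, in contrast, turned with the length used (7775 ± 27.8 and 7958 ± 235 per kb of the principal transcript).

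Genes whose log2 values across the 12 libraries were most like those of each of the 9 were found by Pearson's r over 15956 other genes. The 12 libraries fall into 4 groups, so these correlations mostly reflect the group means, and they are given as a description. For GLUL the 5 most alike were GATSL3 (r = 0.989), also known as CASTOR1, an arginine sensor of the mTORC1 pathway, then STOM (0.981), SAP30 (0.980), ACSL1 (0.979) and TCN2 (0.978). GATSL3 averaged 655 ± 82.3 in WT-GR vehicle, 2425 ± 226 in WT-GR Dex, 642 ± 38.1 in S134A-GR vehicle and 1225 ± 43.2 in S134A-GR Dex. The nearest genes of the others were EPC1 for GLS2 (0.968), MCFD2 for GLUD1 (0.985), PSMB6 for GOT1 (0.921), ZNF300 for GOT2 (0.993) and DNTTIP1 for GPT2 (0.985). ZNF300 was near 0 in WT-GR cells, with means of 2.84 in vehicle and 1.14 in Dex. In S134A-GR cells its means were 426 in vehicle and 386 in Dex, so its r reflects a step between genotypes. For the carriers they were DGKZ for SLC1A5 (0.997), ATP2B1 for SLC38A1 (0.989) and ELK3 for SLC38A2 (0.992). None of these nearest genes is another of the 9.

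The surrounding pathway was read from 5 lists of 66 genes, of which 65 were found and 62 tested. In WT-GR cells Dex raised 10 and lowered 11 of the 62, near the shares over all genes of 13.9% and 14.0%. With S134A-GR it raised 8 and lowered 3, where 7.99% and 7.76% of all genes were called. In the test of the difference between responses 0 of 62 were called (0.414% of all genes). Between genotypes, 8 were higher and 29 lower in S134A-GR vehicle (23.8% and 26.7% of all genes). In Dex 9 were higher and 29 lower (23.4% and 26.3%).

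The first list holds enzymes that spend glutamine's amide nitrogen and, besides, the glutaminyl-tRNA synthetase QARS. Of its 11 genes tested, Dex lowered 5 and raised 1 in WT-GR cells, where 14.0% of all genes were lower and 13.9% higher (median log2 difference -0.17, beside -0.02 over all genes), and in S134A-GR cells it lowered 1 and raised 0 (7.76% and 7.99% of all genes; median -0.01). The 1 raised gene, named after its value was seen, was QARS (log2 difference 0.15; limma adjusted p = 0.0176), so the 5 lower are all amide users. GFPT2, which starts the hexosamine pathway, fell by 30.9% in WT-GR cells (limma adjusted p = 9.25e-08) and 30.3% in S134A-GR cells (adjusted p = 1.21e-07). PPAT, the first enzyme of purine synthesis, had a WT-GR log2 difference of -0.40 ± 0.06 (adjusted p = 0.000229), and asparagine synthetase (ASNS) one of -0.28 ± 0.06 (adjusted p = 0.00374). In vehicle ASNS was also 55.8% lower with the S134A-GR receptor, at 2313 ± 57.2 against 5230 ± 64.4 (adjusted p = 5.77e-09).

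Of 18 other enzymes of glutamate metabolism, Dex raised 2 and lowered 4 in WT-GR cells (13.9% and 14.0% of all genes), and raised 2 and lowered 0 in S134A-GR cells (7.99% and 7.76%). The medians of the list were -0.01 and -0.06. GCLC, which joins glutamate to cysteine in glutathione synthesis, rose by 65.9% and 84.9% (limma adjusted p = 1.49e-06 and 1.92e-07), and the branched-chain aminotransferase BCAT2 by 42.2% and 22.3% (adjusted p = 0.000307 and 0.0198). Among the 4 lowered in WT-GR cells, GPT had the largest called change of the list (log2 difference -1.13; limma adjusted p = 0.0474). Its means were low, 72.8 in vehicle and 37.1 in Dex, and the libraries overlapped. GAD1, also lowered there, was at -0.34 (limma adjusted p = 0.0293). Neither GPT nor GAD1 was called in S134A-GR cells (limma adjusted p = 0.595 and 0.13).

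Of 19 other glutamine and glutamate transporters tested, Dex raised 3 and lowered 2 in WT-GR cells, and raised 3 and lowered 1 in S134A-GR cells. The shares over all genes were 13.9% and 14.0%, and 7.99% and 7.76%, and the medians of the list 0.03 and -0.05. SLC38A4, a further carrier of the SLC38 family, rose from 495 ± 24.1 to 1586 ± 250 in WT-GR cells and from 258 ± 16.9 to 1165 ± 90.9 in S134A-GR cells (limma adjusted p = 7.16e-08 and 4.69e-09). The glutamate carrier SLC1A3 rose from 453 ± 53.2 to 914 ± 107 and from 289 ± 22.6 to 561 ± 50.9 (adjusted p = 2.78e-05 and 5.04e-05). SLC7A11, which exports glutamate in exchange for cystine, fell by 43.6% and 35.2% (adjusted p = 9.9e-05 and 0.00102).

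The malate-aspartate shuttle links GOT1 and GOT2 across the mitochondrial membrane. Of its 5 other members tested, 0 were called for Dex in either genotype. Over all genes 27.9% were called for Dex in WT-GR cells and 15.7% in S134A-GR cells. Under vehicle and under Dex alike, 4 of the 5 were lower with S134A-GR (26.7% and 26.3% of all genes). MDH1 was among them (log2 difference -0.47 ± 0.06 in vehicle, limma adjusted p = 2.32e-05). GOT2, as given above, was higher with S134A-GR. Of 9 regulators of glutamine genes, 4 rose and 0 fell in WT-GR cells (13.9% and 14.0% of all genes), and 3 rose and 1 fell in S134A-GR cells (7.99% and 7.76%). FOXO1, a transcription factor known to raise GLUL, rose by 130% and 181% (adjusted p = 3.72e-07 and 3.81e-08). FOXO3 rose by 0.52 ± 0.07 and 0.61 ± 0.07 (adjusted p = 8.17e-05 and 1.85e-05). MYC, known to raise glutamine uptake and breakdown, rose by 0.81 ± 0.04 and 0.89 ± 0.04 (adjusted p = 7.83e-09 and 2.71e-09). ATF4, the amino acid stress factor, was 22.1% lower in S134A-GR vehicle (adjusted p = 1.85e-05).

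**Figure D4:**
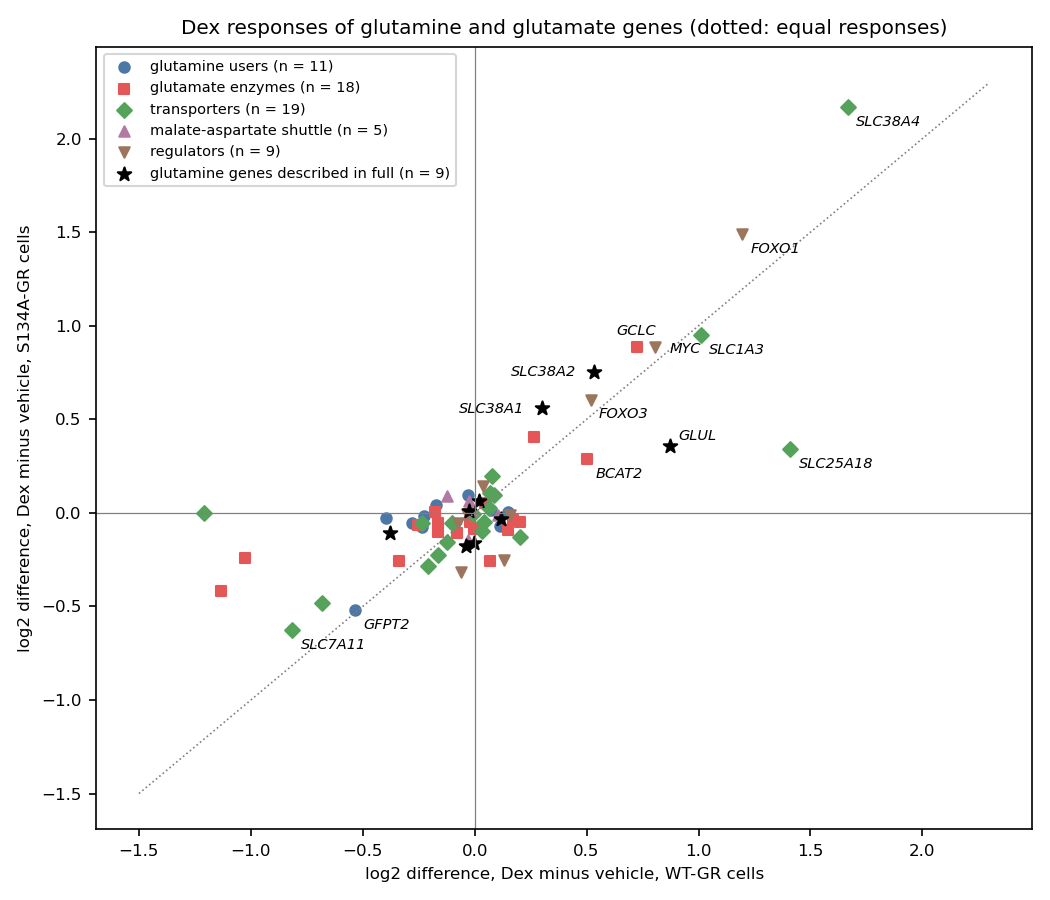
Log2 difference between Dex and vehicle in WT-GR cells (x axis) and in S134A-GR cells (y axis) for the 62 listed pathway genes tested and the 9 glutamine genes (stars). The dotted line marks equal responses; GLUL (0.87 and 0.36) lies under it, and SLC38A4 (1.67 and 2.17), SLC38A2 (0.54 and 0.75) and SLC38A1 (0.30 and 0.56) lie over it.

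SLC38A1, SLC38A2 and SLC38A4 follow each other on chromosome 12, with gaps of 88.2 and 391.9 kb, and all 3 rose with Dex in both genotypes. The interval from 500 kb before to 500 kb after these 3 genes, chosen after their values were seen, holds 7 protein-coding genes. Of the 4 others, 0 were called higher in either genotype. In WT-GR cells 3 were called lower (ARID2, AMIGO2 and PCED1B), and in S134A-GR cells 2 (AMIGO2 and PCED1B). Over all genes 13.9% were called higher and 14.0% lower in WT-GR cells, and 7.99% and 7.76% in S134A-GR cells. With 4 genes, 0 higher is near those shares. AMIGO2 had log2 differences of -1.33 and -1.27 (limma adjusted p = 7.34e-11 and 1.16e-10). AMIGO2 and PCED1B overlap on opposite strands, so their reads cannot be told apart where they meet. SCAF11, the gene before SLC38A1, was at -0.13 and 0.08 and was not called (adjusted p = 0.181 and 0.601). The responses of the 3 carriers were largest for SLC38A4 and smallest for SLC38A1, in both genotypes.

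**Figure D5:**
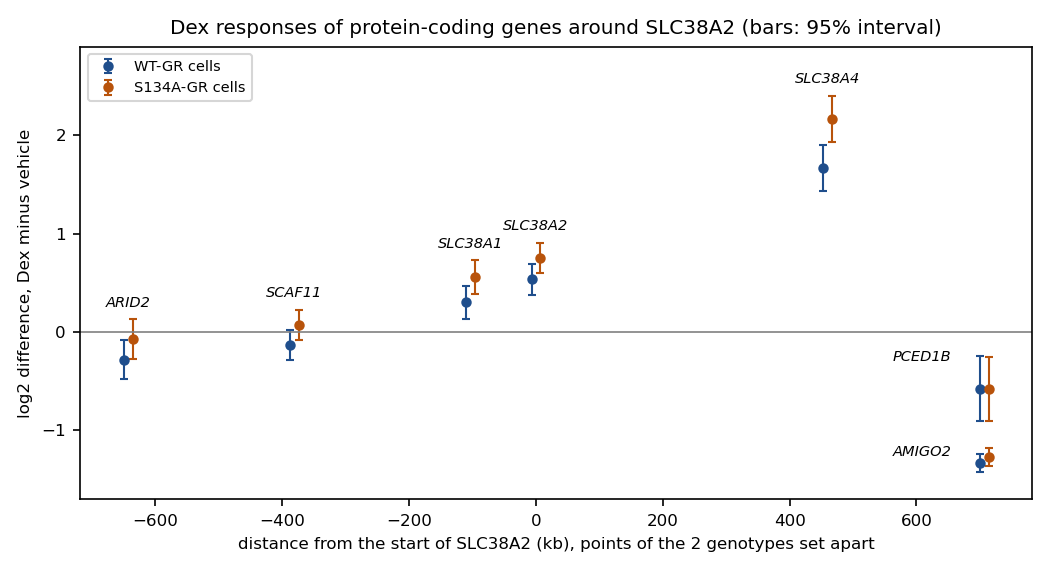
Log2 difference between Dex and vehicle (y axis, 95% intervals from limma) for the 7 protein-coding genes around SLC38A2, by distance from its start in kb (x axis), in WT-GR and S134A-GR cells. The 3 SLC38 genes lie above 0 in both genotypes, and AMIGO2 and PCED1B lie below 0.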

How the data were processed

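RNA of 12 libraries, 3 for each of 4 groups of genotype by treatment, was sequenced as pairs of 75 bases from TruSeq libraries, per the labels' protocols. Per the submitters' processing notes the authors used FastQC 0.11.7, featureCounts of Subread, DESeq2 1.22.2 and hg38. What aligner and annotation they took is not given in the sources used here.

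The deposited values are a normalized signal: each gene's reads over 1 size factor per library. This was read from the values: 100% were whole multiples of 1 read's worth, within a tolerance of 0.01 reads, and recovered totals were 56.4 to 100.6 M a library. Intervals from counting alone were not used. The Dex files list 26485 names, of which 6578 have no value, and their values carry shifted names. Values were therefore named by line order from the vehicle files (19907 genes): Dex and vehicle values correlated at 0.98 to 0.99 by line and at about 0 by deposited name, and in windows of 100 lines either side of each of the 9 genes the best match, among shifts of up to 5 lines, was the same line in all Dex libraries.

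The main test was limma 3.58.1 (R 4.3.3) on log2(value + 1), its variance prior following mean expression, over genes with at least 10 in at least 3 libraries (15957), with all 4 groups in 1 model. Tests were two-sided with Benjamini-Hochberg adjustment over all tested genes and a threshold of 0.05. Log2 differences are on the log2(value + 1) scale. Percent changes come from the ratio of the group means of the normalized values, so they can differ slightly from the log2 differences beside them. The fit was tested on simulated data, for Dex in WT-GR cells only and not for the difference of responses. Alternatives were pseudocounts of 0.5 and 10, no filter and a minimum of 50, a replicate block, the compared groups only, library weights, edgeR 4.0.16 with TMM or library size alone and DESeq2 1.42.0 on recovered reads, without WT-GR Dex replicates 2 and 3, and without each library in turn. All 9 genes are named. Of the listed pathway genes, up to 4 a list and comparison with the largest change past the threshold could be named, and 1 of them is not reported here. The genes and lists were chosen with earlier results of these data known. Promoter windows are from RefSeq (GRCh38.p14) and gene positions from GENCODE v29.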

Additional observations from a re-analysis of the deposited data

Results flagged for a closer look

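The Dex response of GLUL differed between the genotypes in a test of the difference itself, the interaction term of the limma model. It was -0.51 on the log2 scale, S134A-GR minus WT-GR, from responses of 0.87 in WT-GR cells and 0.36 in S134A-GR cells (n = 3 a group). All 3 S134A-GR Dex libraries lay below all 3 WT-GR Dex libraries, while the vehicle libraries overlapped.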

How the results depend on the processing

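GLUL, SLC38A2 and GPT2 with Dex, SLC38A1 with Dex in S134A-GR cells and the GLUL difference of responses kept their direction and side of the threshold in every alternative run. With the compared groups only, 2490 genes were called for Dex in WT-GR cells and 2 of the 9 were higher, and 2 were lower in S134A-GR cells. Library weights gave 7113 and 5116 genes for Dex in WT-GR and S134A-GR cells and 2854 for the difference, with 2 of the 9 lower in S134A-GR cells and 2 higher and 2 lower in the difference; the cause was not tested. DESeq2 gave 506 genes for the difference, over 12233 with an adjusted p. Without WT-GR Dex replicates 2 and 3, which leaves 1 library in that group, assumed to vary like the others, the difference gave 2550 genes, with 2 of the 9 lower; for Dex 2 were higher and 1 lower in WT-GR cells and 2 lower in S134A-GR cells. Without a filter 1 of the 9 was higher in S134A-GR vehicle. Scaling by library size left 3 of the 9 lower in S134A-GR cells in vehicle and 3 in Dex.

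Directions that turned all belong to values not called here, apart from GLUD1 between genotypes in Dex. For Dex in WT-GR cells, SLC1A5 turned to 0.031 (weights), 0.014 (edgeR with TMM), 0.00 (DESeq2) and 0.14 (without WT-GR Dex replicates 2 and 3), GLUD1 to -0.042 (library size) and -0.009 (without those replicates) and GOT2 to 0.015 (without them). In S134A-GR cells GOT2 turned to -0.013 (library size). In the difference GLS2 turned to 0.00 (weights) and GOT2 to -0.004 (without those replicates). Between genotypes in vehicle GOT1 turned to 0.020 (weights), 0.004 (TMM) and 0.070 (library size), and GLUL to 0.045 (library size); in Dex GLUD1 turned to 0.011 and SLC38A1 to 0.019 (library size). The cause was not tested.

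Leaving out 1 library at a time gave 2963 to 6094 genes for Dex in WT-GR cells (the lowest without WT-GR vehicle replicate 2), 1798 to 3045 in S134A-GR cells, and 26 to 1604 for the difference, where 1604 came without WT-GR Dex replicate 3. The 9 genes gave 1 to 2 lower for Dex in S134A-GR cells, 0 to 1 higher in the difference (SLC38A1, 0.35, without WT-GR Dex replicate 3), and 1 to 2 higher in S134A-GR vehicle. Values that turned ranged from -0.074 to 0.077 (SLC1A5, Dex in WT-GR cells), -0.234 to 0.045 (GLS2, Dex in S134A-GR cells), -0.025 to 0.000 (GOT1, genotype in vehicle) and -0.14 to 0.002 (SLC38A1, genotype in Dex).

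The labels number the replicates of each group 1 to 3. Deviations of same-numbered libraries correlated at -0.09 to 0.06 over 18 pairs, most of them across genotypes, and 7 of 18 were best at their own number. Within S134A-GR cells each vehicle library was closest to the same-numbered Dex library (r = 0.008, 0.051 and 0.042). In WT-GR cells this held for replicates 1 and 2 (0.034 and 0.03) and not for replicate 3 (-0.034). Replicate 1 of WT-GR vehicle and of WT-GR Dex had the lowest recovered totals, 56.4 and 56.9 M. The labels do not say that the numbers pair the libraries, and they were not taken to. A replicate block gave 25 genes for the difference, in place of 66. A fit of the compared groups only was not run for the difference, which needs all 4 groups. Depth limits GLS2 most, at 22.2 to 85.5 normalized counts.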
